A study of Mus musculus with 12 samples.

Results

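The 10 genes described here are Fgf21, Angptl4, Creb3l3, Pdk4, Cd36, Plin2, Cidec, Cyp4a10, Cyp4a14 and Vnn1, known in mouse liver as fasting genes that respond to PPARα. They were chosen by name, and all 10 were found among the 28030 genes of the deposited count table. After 24 h of fasting, edgeR called 4 of the 10 higher over both liver zones: Angptl4 by 8.61-fold, Pdk4 by 7.15-fold, Cyp4a14 by 2.67-fold and Creb3l3 by 1.39-fold. The other 6 did not pass the test, and Fgf21 alone had a log2 fold change below 0 over both zones. In the same comparison, 17.8% of all 12086 genes tested were called higher. No member differed between the zones by the test.

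PPARα is a nuclear receptor that binds DNA as a pair with RXR, at direct repeats of a short receptor site. Fatty acids and their derivatives activate it, and in the fasted liver, where fatty acids arrive from adipose tissue, it is known to raise genes of fatty acid uptake, storage, oxidation and ketone body synthesis. Hepatic Fgf21 is known to be raised both by PPARα in fasting and by the sugar-responsive factor ChREBP. In the lobule, hepatocytes next to the portal tract are known for more fatty acid oxidation than those next to the central vein.

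All 12 libraries held total RNA of hepatocytes from wild-type (WT) female mice aged 12 weeks on normal chow, in 4 groups of 3: fasted PC, fed PC, fasted PP and fed PP. PC stands for pericentral hepatocytes, from around the central vein, and PP for periportal ones, from around the portal tract. Per the labels, the zones were separated with digitonin, a detergent that kills the cells of one zone and spares those of the other. Mice were trained for 3 days with 16 h without food overnight and 8 h with food, and on the day of the experiment all had chow and 20% sucrose in the drinking water. Fed mice were killed after 4 h of that feeding, and fasted mice 24 h after food and sucrose water were removed. Fed mice therefore had sucrose shortly before death and fasted mice did not, so the fed groups are not a chow-only baseline. Replicates are labelled as biological, and it is not stated whether one mouse gave both a PC and a PP library.

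Library totals ran from 16245846 to 27449412 estimated counts. Genes known to answer feeding followed the labels in both zones: for the mean of both zones edgeR called 5 of 10 such genes higher and 5 lower, among them Pck1, a gluconeogenic enzyme, at a log2 fold change of 4.26, and Fasn, fatty acid synthase, at -4.69. The 10 pericentral markers summed to 13670 to 24430 CPM (counts scaled to library size) in fasted PC and 15770 to 16940 CPM in fed PC, against 373 to 1162 CPM in fasted PP and 1029 to 1995 CPM in fed PP. The 10 periportal markers were less apart in sum. They had 10250 to 14030 CPM in fasted PC against 18900 to 25090 CPM in fasted PP, and 6240 to 7812 CPM in fed PC against 11590 to 16120 CPM in fed PP. The periportal list holds Pck1, and for the mean of both zones edgeR called 3 of its genes higher with fasting and 1 lower. Its sums thus do not reflect zone alone. Of the 10 periportal markers, edgeR called 5 lower in PC in each feeding state. The pericentral markers called higher in PC numbered 10 in fasted mice and 9 in fed mice. Fasted PC replicate 1 stood apart from its group in zone genes, with 172 CPM of the pericentral enzyme gene Glul against 3637 and 2351 CPM in the others, and 579 CPM of the periportal enzyme gene Hal against 69.8 and 109 CPM. The cause was not tested, and calls of the 10 genes that turn on this library are given without it as well. Markers of other liver cells summed to at most 12.9 CPM for macrophages, 22.8 CPM for stellate cells, 35.6 CPM for endothelial cells and 48.8 CPM for cholangiocytes in any library, and the adipocyte coat gene Plin1 was listed at 0 throughout. Cholangiocyte markers summed to 13.9 to 25.8 CPM in fasted PC and 24.2 to 29.1 CPM in fed PC, against 35.1 to 38.1 CPM in fasted PP and 37.0 to 48.8 CPM in fed PP. Of the 4 of these markers that were tested, edgeR called 2 lower with fasting for the mean of both zones, Sox9 at -0.61 (adjusted p = 0.0435) and Spp1 at -0.56 (0.0173), and the same 2 lower in PC than in PP in fasted mice. Their part in the results was not tested. In bulk RNA, a change in the number of cells of a type and in RNA per cell cannot be told apart.

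Promoter sequence is shown for 4 of the members for which the RefSeq promoter table held a window. Pdk4 and Creb3l3 were called with fasting for the mean of both zones, and Plin2 and Fgf21 were not. The absence or presence of the receptor's motif just before the start can thus be read directly. The windows of Cd36 and Cidec and a second one of Creb3l3 are not printed. Of the 10 genes, 6 had 1 or 2 windows, 8 in all, and Angptl4, Cyp4a10, Cyp4a14 and Vnn1 had none. Each sequence gives the 250 bases before a RefSeq start on GRCm38.p6 (mm10), 5′ to 3′ on the gene's own strand, which is the minus strand in all 4. The regions are chr6:5496279-5496528 for Pdk4, chr10:81098873-81099122 for Creb3l3, chr4:86670060-86670309 for Plin2 and chr7:45615491-45615740 for Fgf21. Capitals mark a single receptor site (AGGTCA, or TGACCT on the other strand) in Plin2 and a TATA box (TATAAA) in Fgf21.
Pdk4: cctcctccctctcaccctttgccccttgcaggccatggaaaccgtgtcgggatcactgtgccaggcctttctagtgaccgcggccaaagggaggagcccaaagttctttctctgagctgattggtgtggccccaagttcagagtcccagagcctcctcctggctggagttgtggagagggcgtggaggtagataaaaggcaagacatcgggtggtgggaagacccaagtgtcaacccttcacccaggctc
Creb3l3: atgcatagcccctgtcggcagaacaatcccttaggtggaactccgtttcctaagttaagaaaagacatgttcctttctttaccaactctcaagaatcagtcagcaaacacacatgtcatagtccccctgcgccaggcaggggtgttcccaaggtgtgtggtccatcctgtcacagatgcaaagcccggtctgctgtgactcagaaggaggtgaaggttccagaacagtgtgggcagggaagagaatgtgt
Plin2: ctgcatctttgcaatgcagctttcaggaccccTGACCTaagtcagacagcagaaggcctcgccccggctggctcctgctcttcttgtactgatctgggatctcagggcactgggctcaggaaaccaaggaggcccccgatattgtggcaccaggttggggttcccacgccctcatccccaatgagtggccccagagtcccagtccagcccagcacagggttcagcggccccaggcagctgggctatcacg
Fgf21: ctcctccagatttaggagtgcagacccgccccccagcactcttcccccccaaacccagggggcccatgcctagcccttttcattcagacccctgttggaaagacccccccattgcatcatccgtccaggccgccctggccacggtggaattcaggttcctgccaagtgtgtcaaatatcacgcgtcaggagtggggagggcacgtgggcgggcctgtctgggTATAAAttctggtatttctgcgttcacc

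The full PPARα-RXR repeat AGGTCANAGGTCA, searched on both strands, lay in 0 of the 8 windows, as did the looser AGGNCANAGGNCA. Among all 32851 windows of the same length, 0.0335% held the exact repeat and 0.338% the looser one. The single receptor site, which is also part of each exact repeat, lay in 3 of the 8 windows, against 14.0% of all windows. It stood 218 bases before the start in Plin2, 228 before in Cd36 and 202 before in a second Creb3l3 window at chr10:81092592-81092841. The core of the cyclic AMP and CREB3L site, TGACGT, was in none of the 8, against 6.47% of all. A TATA box stood 28 bases before the start in Fgf21, in 1 of the 8 windows, against 12.4% of all. These are matches of letters, and a repeat farther from a start or within an intron would not be seen here.

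**Figure D1:**
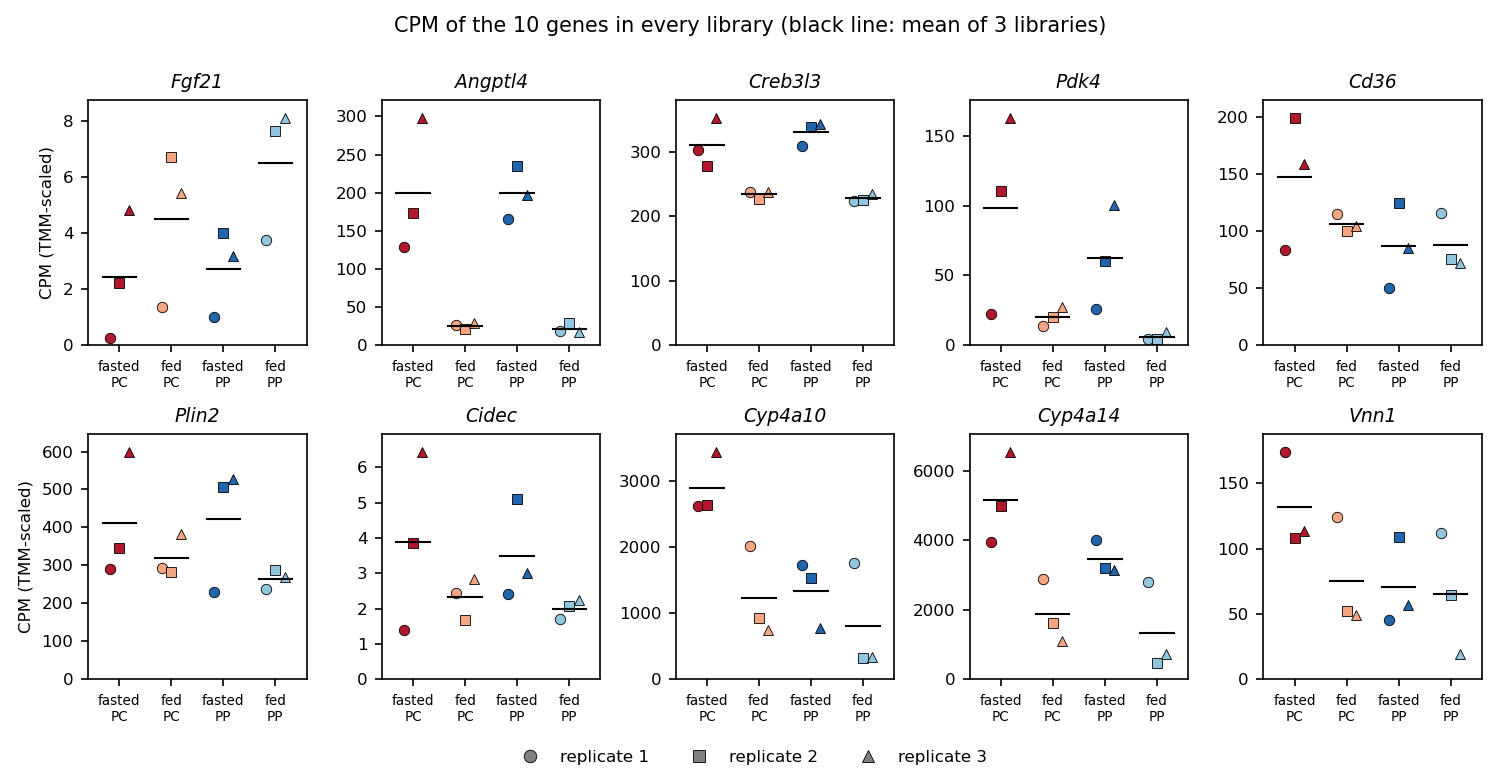
Level of each of the 10 genes in each library, in CPM on linear axes that start at 0, with 1 panel per gene. Symbols are libraries, shaped by replicate number, and the black line is the mean of 3 libraries. Angptl4, Creb3l3 and Cyp4a14 have every fasted library above every fed library, and Fgf21 has its lowest mean in fasted PC.

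In PC, edgeR called 2 of the 10 genes higher with fasting, Angptl4 and Creb3l3, and 0 lower. Of all 12086 genes tested, 11.1% were called higher and 10.2% lower in that comparison. In PP it called 3 higher, adding Pdk4, and 0 lower, where 8.39% of all genes were higher and 9.5% lower. For the mean of both zones, which pools the zones in one model, 4 were higher and 0 lower, with 17.8% of all genes higher and 17.5% lower. That model takes PC and PP libraries as independent. If the same mouse gave both, which the labels do not state, the SE of this mean could be too small and its calls too many. The members' median log2 fold change was 0.78 in PC, 0.70 in PP and 0.65 for the mean of both zones, and the median of all genes was 0.00 each time to 2 decimals. With total counts alone as the scaling, the calls over all genes split as 1025 higher and 1545 lower in PC, against 1345 and 1237 with TMM scaling, as 772 and 1523 in PP, against 1014 and 1148, and as 1588 and 2648 for the mean of both zones, against 2153 and 2111. The members' calls were the same with either scaling. In PC, all 3 fasted libraries lay above all 3 fed libraries for 4 members, Angptl4, Creb3l3, Cyp4a10 and Cyp4a14, and 21.5% of all genes did so. In PP this held for 5 members, Angptl4, Creb3l3, Pdk4, Cidec and Cyp4a14, and for 16.8% of all genes. All 6 fasted libraries lay above all 6 fed libraries for Angptl4, Creb3l3 and Cyp4a14, and for 7.77% of all genes.

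Of the secreted proteins, Angptl4, angiopoietin-like 4, is known to inhibit lipoprotein lipase and so to hold back the uptake of triglyceride from the blood. The gene lies at chr17:33773750-33781830 on the minus strand. It had 129, 173 and 298 CPM in fasted PC libraries, against 26.7, 20.7 and 28.4 CPM in fed PC libraries. In PP it had 165, 235 and 198 CPM in fasted libraries, against 18.1, 29.0 and 16.8 CPM in fed libraries. The lowest fasted library was thus well above the highest fed one, in both zones. Angptl4 rose by 2.99 ± 0.32 on the log2 scale in PC (SE; edgeR adjusted p = 0.000186) and by 3.23 ± 0.32 in PP (0.000177). The call held in both zones without any 1 of the 12 libraries, with log2 fold changes between 2.57 and 3.20 in PC.

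Fgf21, fibroblast growth factor 21, is a liver hormone that acts on adipose tissue and brain through the coreceptor β-Klotho. The gene lies at chr7:45613886-45615490 on the minus strand, and its TATA box is among the sequences above. It had 0.257, 2.23 and 4.82 CPM in fasted PC libraries, against 1.35, 6.71 and 5.43 CPM in fed PC libraries. Fasted PP libraries had 1.00, 4.00 and 3.19 CPM, against 3.75, 7.64 and 8.11 CPM in fed PP libraries. Fasted and fed libraries overlapped in both zones, and replicate 1 was the lowest of its group in all 4 groups. The log2 fold change was -0.89 ± 0.84 in PC (edgeR adjusted p = 0.494), -1.24 ± 0.83 in PP (0.341) and -1.06 ± 0.59 for the mean of both zones (0.189). The 95% interval of the last ran from -2.42 to 0.29, which leaves out a rise as large as those of Angptl4 and Pdk4. Without 1 library at a time the value in PC lay between -1.90, without fasted PC replicate 3, and -0.37, without fasted PC replicate 1, the library that stood apart in zone genes, and it was called in none of these fits (edgeR adjusted p = 0.207 to 0.787). The lowest library rests on 5 counts and the highest on 193.

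Of the 5 receptor genes that FGF21 can use, Klb, which encodes β-Klotho, had 46.6, 54.6 and 42.5 CPM in fasted PC, against 41.5, 40.1 and 40.8 CPM in fed PC (mean of both zones 0.21 ± 0.087, edgeR adjusted p = 0.0744). Fgfr3 fell by 1.27 on the log2 scale for that mean (edgeR adjusted p = 0.000147). Fgfr4, the main hepatocyte receptor of the family, was called higher at 0.38 ± 0.12 (edgeR adjusted p = 0.0243), a call lost when fasted PC replicate 2, fasted PP replicate 3, fed PC replicate 3 or fed PP replicate 2 was left out. Leaving out any 1 of 4 others (fasted PC replicate 3, fasted PP replicate 1, fed PC replicate 2 and fed PP replicate 3) made 2 of the 5 higher. The median of the 5 was 0.21. Of 8 tested genes of lipoprotein lipase and its regulators other than Angptl4, 3 rose and 1 fell for the mean of both zones (median log2 fold change 0.05). For the same mean, 17.8% of all genes rose and 17.5% fell. Angptl8, which acts on the same lipase and is known to be raised by feeding, had 8.55, 12.3 and 12.4 CPM in fasted PC, against 264, 283 and 275 CPM in fed PC. It fell by 4.29 on the log2 scale for the mean of both zones (edgeR adjusted p = 9.99e-09), opposite in direction to Angptl4. Apoa5, an apolipoprotein that favours lipolysis by the same lipase, rose by 1.09 ± 0.13 (edgeR adjusted p = 5.68e-05). The others that rose were Apoc3, at 0.36 ± 0.091 (edgeR adjusted p = 0.00877), and Apoc2, given below.

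Creb3l3 encodes CREBH, a transcription factor held in the endoplasmic reticulum membrane, which is cut free in fasting and is known to act with PPARα on Fgf21. The gene lies at chr10:81084324-81098874 on the minus strand. It had 304, 278 and 352 CPM in fasted PC libraries, against 238, 227 and 237 CPM in fed PC libraries. In PP it had 309, 339 and 343 CPM in fasted libraries, against 223, 225 and 235 CPM in fed libraries. The fed libraries of both zones lay within a narrow band and all fasted libraries above it. Creb3l3 rose by 0.41 ± 0.10 on the log2 scale in PC (edgeR adjusted p = 0.0147) and by 0.54 ± 0.11 in PP (0.00437), the smallest rise among the called members. The call in PC was lost without fed PC replicate 2 (edgeR adjusted p = 0.0776) or fasted PC replicate 3 (0.0863), and the call for the mean of both zones, 0.47 ± 0.074 (0.000387), held without any 1 library. Across all genes, 17.8% rose and 17.5% fell for that mean. Of 8 tested genes of the CREB3L family and CREBH targets, 2 rose and 1 fell for it (median 0.09). Those that rose were Apoa5, given above, and Apoc2, which activates lipoprotein lipase, at 0.25 ± 0.089 (edgeR adjusted p = 0.0414), a call lost without 9 of the 12 libraries in turn. Creb3l2, a family member, fell by 0.97 (edgeR adjusted p = 0.000424).

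Pdk4, pyruvate dehydrogenase kinase 4, is known to switch off the entry of pyruvate into the citric acid cycle when fat is burned. The gene lies at chr6:5483351-5496309 on the minus strand. It had 22.1, 111 and 163 CPM in fasted PC libraries, against 13.4, 20.4 and 27.5 CPM in fed PC libraries. Fasted PP libraries had 26.2, 60.6 and 101 CPM, against 4.30, 4.27 and 9.30 CPM in fed PP libraries. Replicate 1 was the lowest fasted library in both zones, and in PC it lay below 1 fed library. Its log2 fold change was 3.40 ± 0.78 in PP (edgeR adjusted p = 0.0165) and 2.27 ± 0.72 in PC, where it was not called (0.0519). Without fasted PC replicate 1 it was 2.73 in PC and was called (edgeR adjusted p = 0.0112), as it was without fasted PP replicate 1 (0.0462) and in DESeq2 (0.0108). Over all fits that left out 1 library it ran from 1.68 to 2.73 in PC (edgeR adjusted p = 0.0112 to 0.16). In PP the call was lost when fed PP replicate 1 (edgeR adjusted p = 0.0600) or 2 (0.0660) was left out, and the rise of 2.84 ± 0.53 for the mean of both zones (0.00286) held without any 1 library.

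Of 11 tested genes of pyruvate dehydrogenase, its kinases and its phosphatases other than Pdk4, 2 rose and 1 fell for the mean of both zones (median 0.04). For the same mean, 17.8% of all genes rose and 17.5% fell. Pdk2, another kinase of the complex, had 115, 91.2 and 83.3 CPM in fasted PC, against 64.9, 55.6 and 68.8 CPM in fed PC, and rose by 0.54 ± 0.095 (edgeR adjusted p = 0.000818). Pdp2, a phosphatase that reverses the kinases, rose by 0.56 ± 0.13 (edgeR adjusted p = 0.00552). Pdhb, a subunit of the enzyme itself, fell by 1.05 (edgeR adjusted p = 1.42e-05). Leaving out replicate 1 of either fed group gave 3 genes that fell, without fasted PC replicate 2 it had 2, and without fasted PP replicate 2 it had 3 that rose and 2 that fell. With total counts alone as the scaling, 2 rose and 4 fell.

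**Figure D2:**
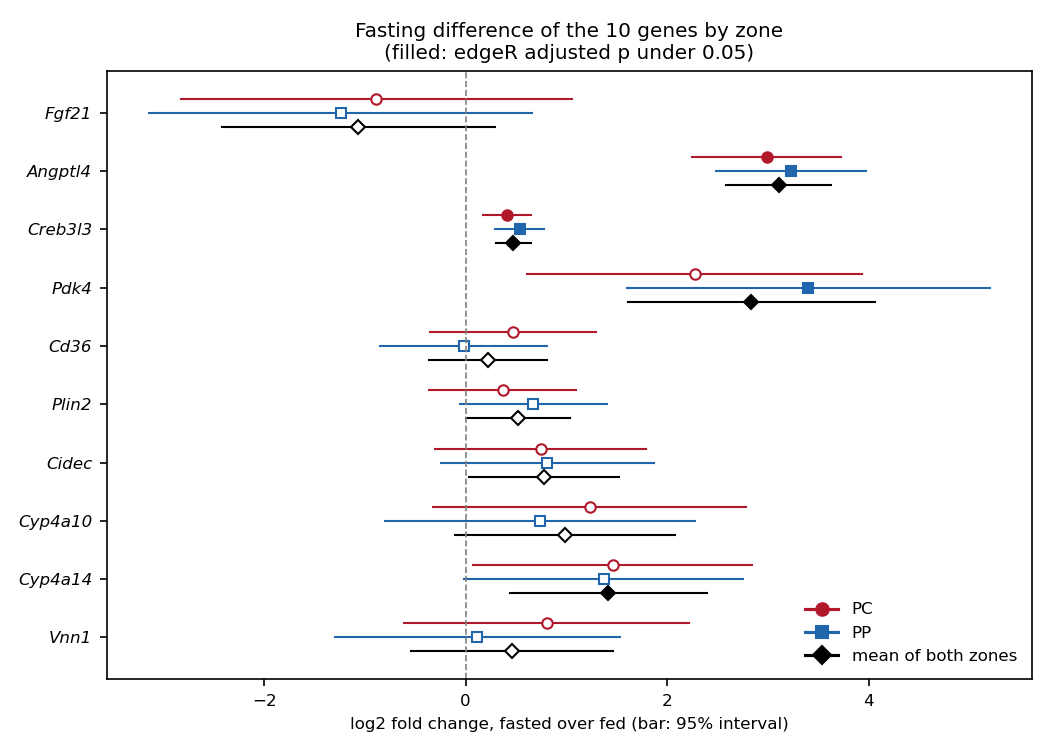
Log2 fold change of the 10 genes, fasted over fed, in PC, in PP and for the mean of both zones, with 95% intervals from edgeR's standard errors. Filled points are called at an adjusted p under 0.05. Angptl4 and Pdk4 have the highest values and Fgf21 the lowest, and the intervals of Fgf21 and Pdk4 are wide.

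Cd36, the fatty acid translocase at the cell surface, lies at chr5:17781690-17888801 on the minus strand. It had 83.7, 199 and 159 CPM in fasted PC libraries, against 115, 99.97 and 104 CPM in fed PC libraries. In PP it had 49.8, 125 and 84.8 CPM in fasted libraries, against 116, 75.7 and 71.5 CPM in fed libraries. Replicate 1 was the lowest fasted library in both zones and the highest fed library in both zones, and the groups overlapped. The log2 fold change was 0.47 ± 0.36 in PC (edgeR adjusted p = 0.391) and -0.02 ± 0.36 in PP (0.979), with 95% intervals from -0.36 to 1.29 and from -0.85 to 0.80. Cd36 is also expressed by endothelial cells, macrophages and adipocytes. The 12 endothelial markers summed to 10.1 to 16.5 CPM in fasted PC and 11.2 to 18.8 CPM in fed PC, and the 8 adipocyte markers to 33.5 to 44.7 CPM in fasted PC and 28.1 to 28.5 CPM in fed PC, mostly Pparg and Lipe, which hepatocytes also express. In PP the endothelial markers summed to 8.20 to 35.6 CPM in fasted libraries and 12.0 to 22.2 CPM in fed libraries, and the adipocyte markers to 19.1 to 23.6 CPM in fasted libraries and 17.3 to 18.2 CPM in fed libraries. Fasted PP replicate 2 had the highest endothelial sum of the 12 libraries and the highest level of Cd36 in PP. It was the highest fasted PP library for 5 of the 10 members, Cd36 among them. Without it the log2 fold change of Cd36 in PP was -0.38 (edgeR adjusted p = 0.538). The part of these cells in the levels of Cd36 was not tested.

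Of 11 other genes of fatty acid uptake and binding tested, 1 rose and 4 fell for the mean of both zones (median -0.03). Across all genes, 17.8% rose and 17.5% fell for that mean. Acsl1, which activates long fatty acids and is itself a known PPARα target, rose by 0.56 ± 0.13 (edgeR adjusted p = 0.00503). Its relatives Acsl3, Acsl4 and Acsl5 fell by 1.17, 0.70 and 0.77 (edgeR adjusted p = 1.15e-05, 0.000945 and 0.00079), and Fabp5, a fatty acid binding protein, fell by 2.68 (0.00404). The 4 that fell were 4 without any 1 library, and the 1 that rose was 2 when fasted PP replicate 3 or replicate 1 of either fed group was left out.

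Plin2, perilipin 2, coats the lipid droplets of hepatocytes, and Cidec promotes their fusion into larger droplets. Plin2 lies at chr4:86648386-86670060 and Cidec at chr6:113424634-113435760, both on the minus strand. Plin2 had 291, 347 and 598 CPM in fasted PC libraries, against 293, 283 and 383 CPM in fed PC libraries. Fasted PP libraries had 231, 507 and 527 CPM, against 239, 287 and 268 CPM in fed PP libraries. Fasted replicate 1 lay within the fed range in PC and below it in PP, and fasted replicate 3 lay above every fed library in each zone. Its log2 fold change was 0.37 ± 0.32 in PC (edgeR adjusted p = 0.449), 0.67 ± 0.32 in PP (0.174) and 0.52 ± 0.22 for the mean of both zones (0.0944). Without fasted PP replicate 1 Plin2 was called in PP, at 0.99 (edgeR adjusted p = 0.0302), and for the mean, at 0.67 (0.0134), and DESeq2 called the mean (0.0420). Without fasted PC replicate 3 the value in PC was -0.02. Leaving out 1 library at a time gave 0.50 to 0.99 in PP (edgeR adjusted p = 0.0302 to 0.384). For the mean it gave 0.33 to 0.67 (edgeR adjusted p = 0.0134 to 0.233).

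Cidec was read from few counts, 27 to 116 per library. It had 1.39, 3.85 and 6.43 CPM in fasted PC libraries, against 2.45, 1.67 and 2.84 CPM in fed PC libraries. In PP it had 2.41, 5.09 and 3.01 CPM in fasted libraries, against 1.70, 2.06 and 2.23 CPM in fed libraries. Fasted libraries of PP lay above all fed ones by a small margin, and in PC fasted replicate 1 lay below all 3 fed libraries. The log2 fold change was 0.75 ± 0.45 in PC (edgeR adjusted p = 0.269), 0.81 ± 0.46 in PP (0.252) and 0.78 ± 0.32 for the mean of both zones (0.0783). Without fasted PC replicate 1 Cidec was called in PC, at 1.13 (edgeR adjusted p = 0.0412), and for the mean, at 0.98 (0.0085). Leaving out 1 library at a time, the value ran from 0.16 to 1.13 in PC (edgeR adjusted p = 0.0412 to 0.844). For the mean it ran from 0.49 to 0.98 (edgeR adjusted p = 0.0085 to 0.229).

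Of 14 other genes of lipid droplet coats and lipolysis tested, 3 rose and 2 fell for the mean of both zones (median 0.14). Across all genes, 17.8% rose and 17.5% fell for that mean. Pnpla2, the adipose triglyceride lipase ATGL, had 90.2, 109 and 103 CPM in fasted PC, against 34.9, 31.3 and 30.0 CPM in fed PC, and rose by 1.53 ± 0.080 (edgeR adjusted p = 1.81e-07). Plin5, a droplet coat of oxidative tissues and a known PPARα target, rose by 1.29 ± 0.20 (edgeR adjusted p = 0.000572), and Lipe, hormone-sensitive lipase, by 0.48 ± 0.12 (0.00775). Pnpla3, a lipase relative raised by feeding, fell by 5.98 (edgeR adjusted p = 0.000207), and Abhd5, the activator of ATGL, fell by 0.61 (0.00177). Without fasted PP replicate 1 the list had 5 genes that rose. These called droplet genes differ in direction among themselves.

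Cyp4a10 and Cyp4a14 are cytochrome P450 enzymes of the endoplasmic reticulum that oxidise the far end of fatty acids, and they are widely used as readouts of PPARα in mouse. They neighbour each other, Cyp4a14 at chr4:115486200-115496142 on the minus strand and Cyp4a10 at chr4:115518264-115533649 on the plus strand. Cyp4a14 had 3957, 4996 and 6536 CPM in fasted PC libraries, against 2878, 1635 and 1117 CPM in fed PC libraries. Fasted PP libraries had 4020, 3202 and 3148 CPM, against 2795, 478 and 738 CPM in fed PP libraries. All fasted libraries lay above all fed libraries in both zones, and fed replicate 1 was the highest fed library in each zone. Its log2 fold change was 1.46 ± 0.60 in PC (edgeR adjusted p = 0.118), 1.37 ± 0.60 in PP (0.151) and 1.42 ± 0.42 for the mean of both zones, where Cyp4a14 was called (0.0271). That call was lost when any of fasted PC replicate 3, fasted PP replicate 1, replicate 3 of either fed group and fed PC replicate 2 was left out, at edgeR adjusted p from 0.0558 to 0.0618, and with no filter on low counts (0.0706). Without fed PP replicate 1, Cyp4a14 was called in PP at 2.52 (edgeR adjusted p = 0.00317) and in PC (0.0123), and a fit to the PC groups alone also called it in PC (0.0319). With each library left out in turn, it ran from 0.98 to 2.52 in PP (edgeR adjusted p = 0.00317 to 0.334). In PC it ran from 1.19 to 1.91 (edgeR adjusted p = 0.0123 to 0.30).

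Cyp4a10 had 2616, 2643 and 3432 CPM in fasted PC libraries, against 2024, 933 and 748 CPM in fed PC libraries. In PP it had 1726, 1535 and 769 CPM in fasted libraries, against 1758, 327 and 330 CPM in fed libraries. The groups did not overlap in PC, and in PP fed replicate 1 lay above every fasted library. The log2 fold change was 1.23 ± 0.67 in PC (edgeR adjusted p = 0.231), 0.74 ± 0.67 in PP (0.498) and 0.98 ± 0.47 for the mean of both zones (0.137). Without fed PP replicate 1 it was called in PP, at 2.04 (edgeR adjusted p = 0.0172), and for the mean, at 1.63 (0.00277). With each library left out in turn, it ran from 0.37 to 2.04 in PP (edgeR adjusted p = 0.0172 to 0.784). For the mean it ran from 0.79 to 1.63 (edgeR adjusted p = 0.00277 to 0.25). Reads of the Cyp4a genes are partly shared: 44.9% of the 31-base words of Cyp4a10 transcripts also occur in other genes, 36.5% in Cyp4a32, against 1.99% for Cyp4a14. The division of counts between Cyp4a10 and Cyp4a32 is therefore uncertain. With the counts of Cyp4a10, Cyp4a14, Cyp4a31 and Cyp4a32 summed, the mean of both zones gave 1.26 and was called (edgeR adjusted p = 0.0457). Cyp4a14, which was called by itself, had a higher level than Cyp4a10 in every library and makes up most of this sum. The call of the sum therefore does not show a rise of Cyp4a10, and it does not settle how counts divide between Cyp4a10 and Cyp4a32.

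Of 11 other Cyp4 genes and their redox partners tested, 2 rose and 1 fell for the mean of both zones (median 0.16). For the same mean, 17.8% of all genes rose and 17.5% fell. Por, the reductase that passes electrons to these enzymes, rose by 1.31 ± 0.11 (edgeR adjusted p = 6.52e-06), and Cyp4f13 by 0.40 ± 0.061 (0.000355), while Cyp4f14 fell by 0.78 (2.25e-05). Cyp4a31 had 0.76 ± 0.36 (edgeR adjusted p = 0.125) and Cyp4a32 0.45 ± 0.22 (0.127), and both are listed among the other PPARα targets too. Without fed PP replicate 1 the list had 4 genes that rose, and without fasted PC replicate 3 it had 2 that fell.

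Vnn1, vanin 1, splits pantetheine into vitamin B5 and cysteamine outside the cell, a step in the turnover of coenzyme A. It lies at chr10:23894688-23905343 on the plus strand. It had 174, 108 and 113 CPM in fasted PC libraries, against 124, 52.5 and 49.3 CPM in fed PC libraries. Fasted PP libraries had 45.5, 109 and 56.6 CPM, against 112, 64.2 and 19.2 CPM in fed PP libraries. Replicate 1 was the highest library in fasted PC, fed PC and fed PP and the lowest in fasted PP, and fasted and fed libraries overlapped in both zones. Its log2 fold change was 0.80 ± 0.61 in PC (edgeR adjusted p = 0.393) and 0.11 ± 0.61 in PP (0.924), with 95% intervals from -0.61 to 2.22 and from -1.30 to 1.53. Of 10 other genes of the vanin family and of coenzyme A synthesis and breakdown tested, 4 rose and 4 fell for the mean of both zones (median 0.12). Across all genes, 17.8% rose and 17.5% fell for that mean. Pank1 and Pank3, kinases of the first step of coenzyme A synthesis, rose by 0.38 ± 0.10 and 0.49 ± 0.097 (edgeR adjusted p = 0.0101 and 0.00181). Nudt7, a peroxisomal enzyme that breaks coenzyme A down, fell by 1.71 (edgeR adjusted p = 9.38e-06), and Ppcs, the synthesis enzyme after the kinases, fell by 0.84 (2.69e-05). Pank4 and Coasy were also called higher, at 0.29 ± 0.10 and 0.18 ± 0.063 (edgeR adjusted p = 0.0406 and 0.0428), and the list had 2 or 3 genes that rose without any 1 library.

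The members were compared between the zones as well. In fasted mice, edgeR called 0 of the 10 between PC and PP, with 3.35% of all genes higher and 3.05% lower in PC. In fed mice it also called 0 of the 10, with 2.24% of all genes higher and 2.47% lower in PC. With total counts alone as the scaling, the calls over all genes split as 595 higher and 302 lower in fasted mice, against 405 and 369 with TMM scaling, and as 377 and 241 in fed mice, against 271 and 299. At an unadjusted p under 0.05, 2338 of all genes differed in fasted mice and 2018 in fed mice, and among the members only Pdk4 in fed mice did (unadjusted p = 0.0421). DESeq2 also called none of the 10 in either state. Both fits take PC and PP libraries as independent. If the same mouse gave both, the SE of a zone difference could be too large and its calls too few. The same limit applies to the difference between the fasting changes, tested below.

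Pdk4 in fed mice was higher in every PC library than in every PP library, at 13.4 to 27.5 CPM in fed PC against 4.27 to 9.30 CPM in fed PP, as were 12.9% of all genes. Its log2 fold change was 1.78 ± 0.76 (edgeR adjusted p = 0.275), with a 95% interval from 0.04 to 3.53. In fasted mice Cyp4a10 was higher in every PC library, at 2616 to 3432 CPM in fasted PC against 769 to 1726 CPM in fasted PP, as were 11.4% of all genes, at 1.11 ± 0.67 on the log2 scale (edgeR adjusted p = 0.430). The other members overlapped between the zones in both states. Angptl4 and Creb3l3 had zone differences close to 0 in fasted mice, 0.00 ± 0.29 and -0.09 ± 0.10, with 95% intervals from -0.67 to 0.68 and from -0.33 to 0.16. Cyp4a14, at 0.49 ± 0.59 in fed mice, was called there without fed PP replicate 1, at 1.65 (edgeR adjusted p = 0.0426). Over all fits that left out 1 library it ran from 0.04 to 1.65 (edgeR adjusted p = 0.0426 to 0.991).

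**Figure D3:**
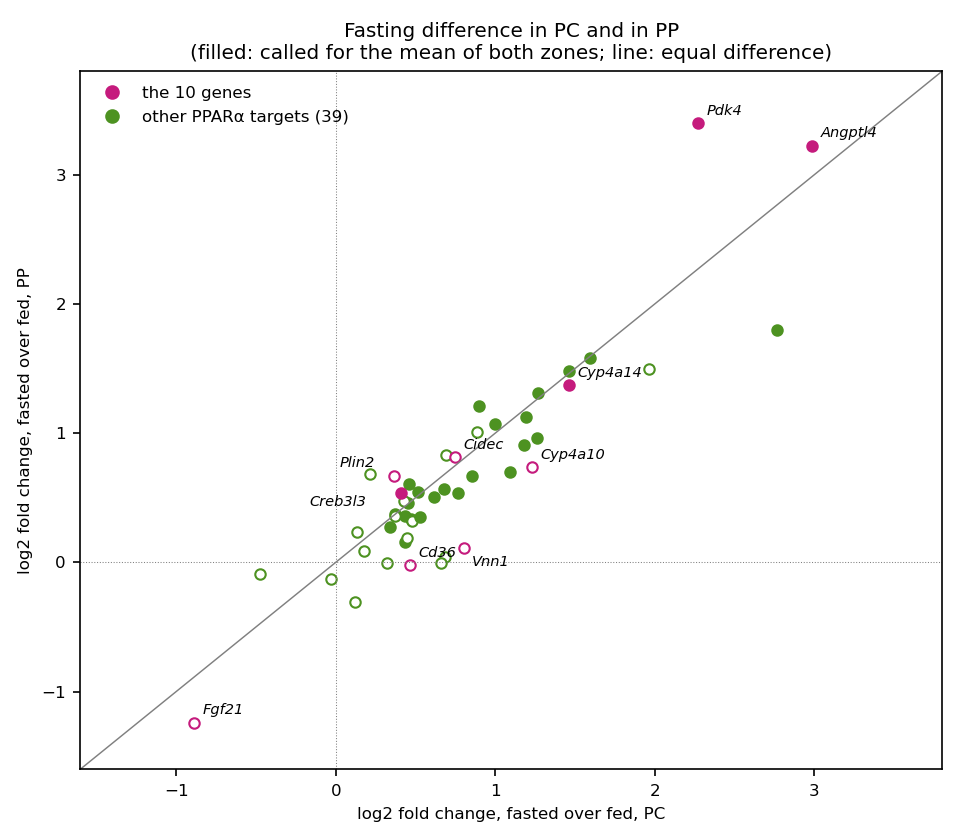
Log2 fold change with fasting in PC (horizontal axis) and in PP (vertical axis) for the 10 genes and for 39 other PPARα targets. Filled points are called for the mean of both zones, and the line marks equal values. Of the 10 genes, Fgf21 is below 0 in both zones, and Pdk4 and Vnn1 lie farthest from the line.

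Whether fasting acted differently in the zones was tested as the difference between the fasting change in PC and that in PP. edgeR called 0 of the 10 members and 0 of all 12086 genes (0% of them), where 465 genes had an unadjusted p under 0.05 and DESeq2 called 11. The difference was -1.13 ± 1.01 on the log2 scale for Pdk4, 0.69 ± 0.87 for Vnn1, 0.49 ± 0.51 for Cd36 and -0.24 ± 0.42 for Angptl4. The 95% intervals ran from -3.47 to 1.21 for Pdk4, from -1.31 to 2.69 for Vnn1 and from -1.21 to 0.73 for Angptl4. A change 2-fold larger in one zone than in the other lies inside each of these intervals. For Creb3l3 the interval was narrower, from -0.47 to 0.22.

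In order of mean level, the 4 groups ran fasted PC, fasted PP, fed PC, fed PP for Angptl4, Pdk4, Cidec, Cyp4a10 and Cyp4a14. For Creb3l3 and Plin2 fasted PP came before fasted PC, followed by fed PC and fed PP. For Cd36 the order was fasted PC, fed PC, fed PP and fasted PP, for Vnn1 fasted PC, fed PC, fasted PP and fed PP, and for Fgf21 fed PP, fed PC, fasted PP and fasted PC. Most neighbours in these orders overlapped. Those whose libraries did not overlap were fasted PP and fed PC for Angptl4 and Cyp4a14, fasted PC and fed PC for Creb3l3, fed PC and fed PP for Pdk4, and fasted PC and fasted PP for Cyp4a10.

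The spread between libraries of a group was large for several members. In fasted PC the highest library was 18.7 times the lowest for Fgf21 and 7.37 times for Pdk4, and in fed PP it was 5.38 times for Cyp4a10, 5.84 times for Cyp4a14 and 5.81 times for Vnn1. The deviations ran together across members. Replicate 1 was the lowest library for 8 of 10 members in fasted PC, with Creb3l3 and Vnn1 the exceptions, and for 8 of 10 in fasted PP, with Cyp4a10 and Cyp4a14 the exceptions. Fasted PC replicate 3 was the highest of its group for 8 of 10. In both fed groups, replicate 1 was the highest for Cyp4a10, Cyp4a14, Vnn1 and Cd36 and the lowest for Fgf21. Members that share a library share its state, so these are not independent observations.

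**Figure D4:**
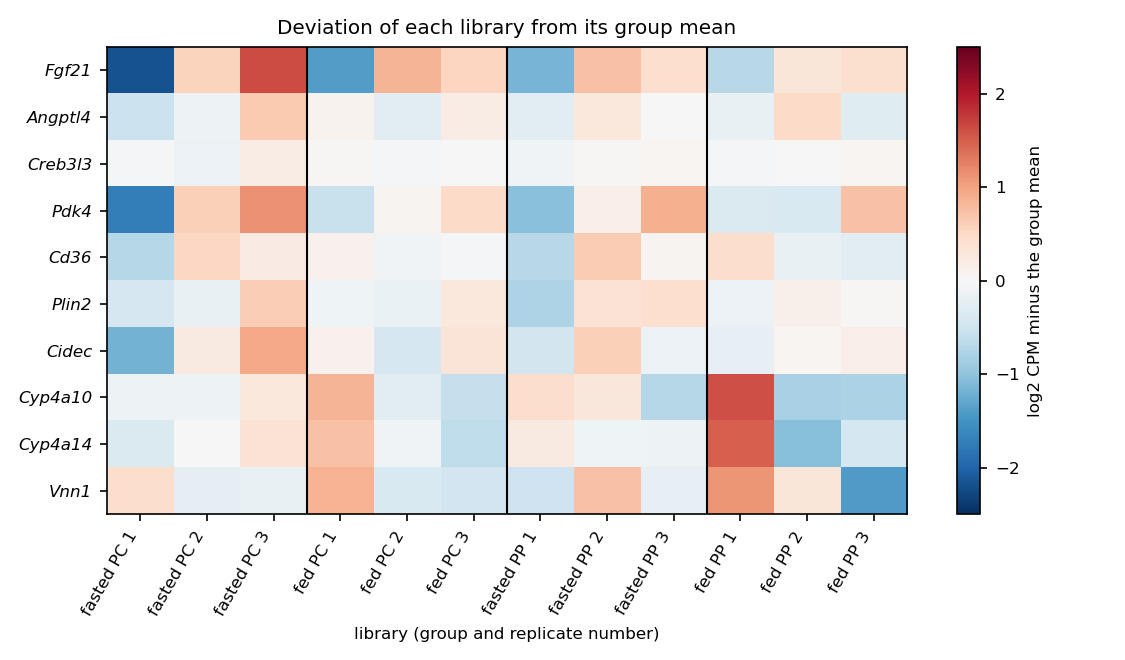
Deviation of each library from its group mean of log2 CPM, for the 10 genes (rows) and 12 libraries (columns), in log2 units. Fasted PC replicate 1 is below its group mean for most genes, with Fgf21 at -2.18, and fed PP replicate 1 is above it for the Cyp4a genes and Vnn1.

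The receptor and its partners were measured in the same libraries. Ppara itself had 171, 184 and 189 CPM in fasted PC, against 139, 122 and 103 CPM in fed PC. In PP it had 75.8, 142 and 148 CPM in fasted libraries, against 91.5, 64.1 and 69.3 CPM in fed libraries. The groups did not overlap in PC, and in PP fasted replicate 1, also the lowest library for 8 members, lay below the highest fed library. Ppara rose by 0.64 ± 0.16 on the log2 scale for the mean of both zones (edgeR adjusted p = 0.00788). Its partner Rxra had 462, 443 and 408 CPM in fasted PC, against 315, 313 and 246 CPM in fed PC, and rose by 0.57 ± 0.086 (edgeR adjusted p = 0.000313).

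Of 18 receptors and cofactors tested, 7 rose for the mean of both zones (median 0.21), and without any 1 library 7 or 8 rose. For the same mean, 17.8% of all genes rose. Ppargc1a, a coactivator of PPARα induced by fasting, had 17.3, 16.5 and 29.7 CPM in fasted PC, against 7.10, 7.16 and 8.52 CPM in fed PC, and rose by 1.54 ± 0.28 (edgeR adjusted p = 0.00167). Its relative Ppargc1b rose by 1.07 ± 0.20 (edgeR adjusted p = 0.0014), and in fasted mice it was lower in PC than in PP, at -1.62 ± 0.28 (0.00438). Sirt1, a deacetylase of Ppargc1a's product, rose by 0.65 ± 0.12 (edgeR adjusted p = 0.00109), and Rxrb by 0.56 ± 0.083 (0.000273). Pparg, the adipose relative of PPARα, was higher in PC than in PP in fasted mice, at 1.62 ± 0.19 (edgeR adjusted p = 0.000435), and in fed mice, at 1.04 ± 0.18 (0.00509).

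**Figure D5:**
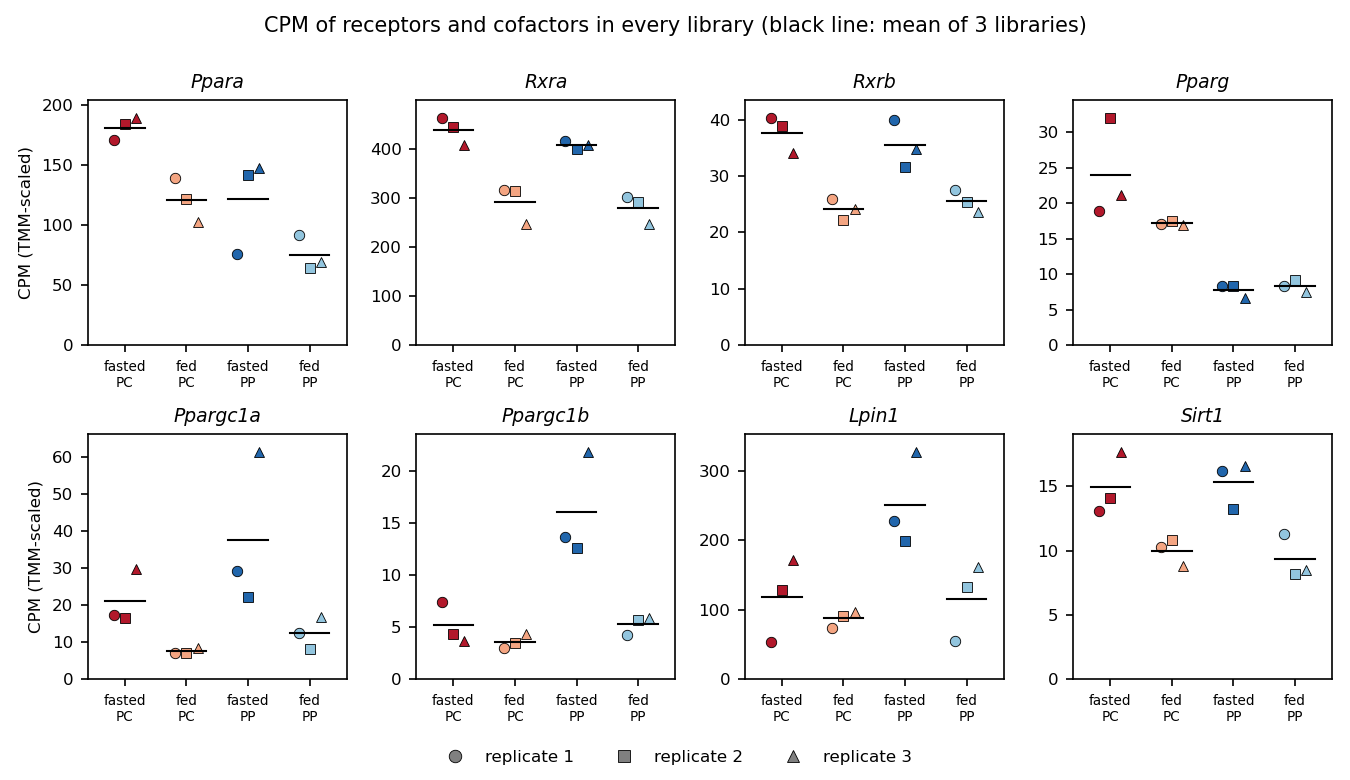
Level of receptor, partner and coactivator genes in each library, in CPM on linear axes that start at 0. Symbols are libraries, shaped by replicate number, and the black line is the mean of 3 libraries. Rxra and Ppargc1a have higher means in fasted than in fed groups of the same zone, and Pparg has higher means in PC than in PP.

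Among 39 other known PPARα targets tested, of 40 listed, 23 rose and 0 fell for the mean of both zones, with a median log2 fold change of 0.46. In that comparison 17.8% of all genes rose and 17.5% fell. The list was chosen with earlier results of these data known. Without any 1 library, 19 to 30 of the 39 rose and 0 fell. In single zones the count was less stable: 16 rose in PC, but 6 when fasted PC replicate 3 or fed PC replicate 2 or 3 was omitted, and 10 when fasted PC replicate 2 was. In PP 9 rose, and 21 did so without fed PP replicate 1, and 4 or 5 without any other 1 PP library except fasted PP replicate 1. Among all genes, 11.1% rose in PC and 8.39% in PP. Acot1, an acyl-CoA thioesterase, had 132, 250 and 369 CPM in fasted PC, against 49.4, 29.97 and 30.99 CPM in fed PC, and rose by 2.28 ± 0.49 for the mean of both zones (edgeR adjusted p = 0.00595). Its relative Acot2 rose by 1.59 ± 0.35 (edgeR adjusted p = 0.00526), and Txnip, a thioredoxin-binding protein that is also known to respond to glucose, by 1.47 ± 0.21 (0.000331). Cpt1a, which admits fatty acids to mitochondria, rose by 1.16 ± 0.099 (edgeR adjusted p = 5.8e-06). Between the zones in fasted mice, 8 of the 39 were called higher in PC and 0 lower (median 0.36), with 3.35% of all genes higher. In fed mice 2 were called higher and 0 lower (median 0.24), with 2.24% of all genes higher. In each state 35 of the 39 had a log2 fold change above 0, and without any 1 library 2 to 9 were called higher. Aldh3a2, a fatty aldehyde dehydrogenase, and Aqp9, a glycerol channel, were higher in PC in both states. They had 1.82 ± 0.26 and 1.53 ± 0.17 in fasted mice (edgeR adjusted p = 0.00185 and 0.000408), and 1.81 ± 0.26 and 1.35 ± 0.17 in fed mice (0.00199 and 0.000726).

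For each member, the genes whose pattern was most like it were those with the smallest root mean square (RMS) difference between log2 CPM profiles centred on their mean over the 12 libraries, among 8124 genes that averaged 5 CPM or more. Creb3l3 was nearest to Abca6 and Tmem38b, with RMS differences of 0.096 and 0.098, against a spread of its own of 0.25. Angptl4 was nearest to Lgals4 and Gpcpd1 (0.45 and 0.51, own spread 1.58), and Pdk4 to Enc1 and Lgals4 (0.88 and 0.89, own spread 1.66). Fgf21 was nearest to Scd1, a fatty acid desaturase of the lipogenic set, and Lhx6 (0.75 and 0.79, own spread 1.29), a distant match. Scd1 was not called with fasting for the mean of both zones (-0.77, edgeR adjusted p = 0.302). In fasted PC, fasted PP and fed PP its lowest library was replicate 1, as for Fgf21. Plin2 was nearest to Pxmp4 and Rad54l2 (0.21 and 0.25), Cidec to Scarf1 and Wdfy1 (0.33 and 0.36), and Cd36 to Igsf11 and Abcc2 (0.24 and 0.25). Cyp4a10 was nearest to Chrna2 and Rad51b (0.52 and 0.53), Cyp4a14 to Cblb and Flvcr2 (0.51 and 0.55), and Vnn1 to Acaa1b, a peroxisomal thiolase and known PPARα target, and Cyp4a32 (0.37 and 0.48). The 12 libraries share groups and zones, so likeness over them is a description only.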

How the data were processed

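The authors deposited one table of estimated counts by gene, many of them fractional. Kallisto 0.46.0 and the build mm10 are named in the submitters' processing notes. Which transcripts were used, how they were summed to genes, and any trimming or strand setting are not given in the sources used here. Per the labels' protocols, RNA was isolated with an RNeasy kit and TRIzol, and libraries were made with NEBNext Ultra, a kit that does not mark strand, so reads of overlapping genes on opposite strands cannot be told apart. Estimated counts divide reads shared by close copies by a model.

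Values were rounded to whole numbers, which moved a library total by at most 120.84. Of 28030 gene identifiers, 27566 had a symbol in the name table and 27645 were found in GENCODE M21 (GRCm38), which gave coordinates. edgeR 4.0.16 in R 4.3.3 kept 12086 genes by filterByExpr, scaled libraries by TMM and fitted 4 group means to 12 libraries in one model (quasi-likelihood, robust, 8 residual degrees of freedom, common biological coefficient of variation 0.2055). A call is an adjusted p under 0.05 (Benjamini-Hochberg over all genes tested). The SE of a log2 fold change is its unshrunk value over the square root of edgeR's F, and levels are CPM with TMM-scaled library sizes. The p-values rest on the spread between libraries, and counts limit the precision of low genes.

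The members and gene lists were chosen with earlier results of these data known. The named genes are the 10 members; up to 4 called genes per direction from each list with a mean of at least 5 CPM, by size of change; the feeding genes; and the 2 genes most like each member. Other genes named with values (Klb, Rxra, Rxrb, Cyp4a31, Cyp4a32, Apoc2 and list members beyond the rule) were chosen after their values were seen. Alternatives were RLE size factors, total counts, no filter on low counts, DESeq2 1.42.0, a replicate block, only the groups compared, summed Cyp4a counts and leaving out each library in turn. Recomputing the other gene lists under them was added after seeing the data. The fit was tested on simulated counts. Promoters are from the RefSeq table for GRCm38.p6, cut to the bases before the start. One gene of the list of receptors and cofactors is not reported here.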

Additional observations from a re-analysis of the deposited data

How the results depend on the processing

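Of 1072 recomputed member fold changes, 1002 kept their direction and their side of the threshold, 21 gained a call, 10 lost one and 39 changed sign. None of those that changed sign was called in the fit reported. For PC against PP in fasted mice, Angptl4 had -0.0038 with RLE size factors, -0.0286 with the replicate block and -0.0107 with only the groups compared, and Plin2 had 0.0375 with total counts.

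Without 1 library at a time, edgeR called 1593 to 2618 genes for fasting in PC, 1405 to 2414 in PP, 3549 to 4216 for the mean of both zones, 386 to 1005 for the zone in fasted mice, 292 to 701 for the zone in fed mice and 0 to 2 for the interaction. Members called ran from 1 to 4 in PC, 2 to 4 in PP, 3 to 5 for the mean of both zones and 0 to 1 for the zone in fed mice. The ranges of fold changes that changed sign were -0.0181 to 0.5432 for Plin2 in PC, -0.376 to 0.2773 for Cd36 and -0.3466 to 0.7721 for Vnn1 in PP, for the zone in fasted mice -1.186 to 0.3515 for Fgf21, -0.4065 to 0.2297 for Angptl4, -0.4111 to 0.1512 for Plin2 and -0.4371 to 0.5412 for Cidec, for the zone in fed mice -0.3563 to 0.8738 for Vnn1, and for the interaction -0.6737 to 0.864 for Fgf21, -0.6631 to 0.3161 for Cidec, -0.832 to 1.0483 for Cyp4a10 and -1.0771 to 0.5387 for Cyp4a14.

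Only the groups compared gave 376 genes for the zone in fasted mice, against 774, and DESeq2 gave 909 for the zone in fed mice, against 570. For the interaction, no filter on low counts gave 1 gene and DESeq2 11. A fit to the PC groups alone called 25 of the other PPARα targets in PC, against 16, and DESeq2 called 17 in PP, against 9. The cause was not tested.

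The labels give each group replicate numbers 1 to 3. Libraries with the same number deviated together with a correlation from -0.1153 to 0.2691, and 3 of 18 pairs were over 0.1, all among the 6 pairs of PC with PP in one feeding state. Of 36 combinations of a library with another group, 18 had their best match in the same number. Since not every pair was over 0.1, the numbers were not taken as pairs. With the replicate block, Pdk4 was also called in PC at 2.00 (edgeR adjusted p = 0.00776) and Fgf21 in PP at -1.42 (0.0433), 7 members were called for the mean of both zones, with Plin2, Cyp4a10 at 1.28 and Fgf21 at -1.22 (edgeR adjusted p = 0.0107) added, and 1 for the zone in fed mice, Pdk4 at 1.81 (0.0415). The block gives each replicate number a common shift in all groups. It thus ties fed libraries to fasted ones, which cannot be of the same mouse, and the labels state no other link between them. The added calls come from a model with that tie, and how far they depend on it was not tested.

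Fgf21 had 5 to 193 counts per library and Cidec 27 to 116. The part of depth in their spread was not tested.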
